A study of Mus musculus with 9 samples.

Results

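The Notch pathway genes described here are 10 genes with a role in Notch signalling: the receptors Notch1, Notch2, Notch3 and Notch4, the ligands Jag1, Jag2 and Dll1, the DNA-binding factor Rbpj, and the target genes Hes1 and Hey1. They were found by symbol among the 56691 genes of the deposited tables, and all 10 were present in each of the 9 libraries and passed the filter on low counts. The libraries came from BVSC mouse PSCs, pluripotent stem cells of a single line that carry a Blimp1-mVenus (BV) and a Stella-CFP reporter. The cells were differentiated in embryoid bodies (EBs), and BV+ cells, taken as PGC-like cells (PGCLCs), were sorted from BV- cells, taken as somatic cells. The libraries labelled NRF1 OE came from cells with a doxycycline-inducible vector for NRF1, a transcription factor of respiratory genes, and the control (Ctrl) was the empty vector. The growth and treatment notes are the same for all libraries and give 1.5 μg/ml doxycycline from day 2 to day 5. There were 2 BV+ NRF1 OE, 2 BV+ Ctrl, 3 BV- NRF1 OE and 2 BV- Ctrl libraries. The study's methods call the RNA-seq replicates biological and do not say how they were separated, so the p-values measure the spread between these libraries.

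Notch receptors are transmembrane proteins that bind Jagged and Delta ligands on a neighbouring cell. Binding lets ADAM proteases and then gamma-secretase cut the receptor, and its intracellular domain moves to the nucleus, joins RBPJ and a Mastermind coactivator, and switches on genes of the Hes and Hey families. In the vertebrate embryo the pathway is best known for somite formation, neural fate and blood vessels, where Notch3 marks mural cells and Notch4 endothelial cells.

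Total counts ranged from 13702162 to 19625460 per library. The Nrf1 gene itself, which checks the vector, had 95.7 and 99.4 CPM (counts scaled to library size, with TMM factors) in BV+ NRF1 OE and 91.1 and 90.4 in BV+ Ctrl, and between 119 and 126 in BV- NRF1 OE against 99.1 and 105 in BV- Ctrl. Neither difference passed edgeR's quasi-likelihood test after Benjamini-Hochberg adjustment (adjusted p = 0.489 in BV+ and 0.0718 in BV- cells), so overexpression of Nrf1 was not detected as a difference in its counts. The BV label was checked against 9 germ cell genes. Their summed CPM lay between 397 and 457 in the BV+ libraries and between 475 and 605 in the BV- libraries, none of the 9 was called higher in BV+ cells in either condition, and Prdm1, the gene of the reporter, lay between 53.3 and 62.8 CPM in BV+ and between 42.4 and 62.0 CPM in BV- libraries. At NRF1 OE, Dppa3, Tfap2c and Nanos3 were lower in BV+ cells. The labels were kept although the Nrf1 differences did not pass the test and the germ cell genes were not called higher in BV+ cells. NRF1 OE, BV+ and BV- stand below for the labels of the libraries. The libraries also differed in a trend with transcript GC content. Spearman's rho of GC content with the log2 CPM of a library relative to the 9-library mean, across 12702 genes that are not independent replicates, lay between -0.602 and -0.515 in Ctrl libraries and between -0.00466 and 0.695 in NRF1 OE libraries. This trend moves with the comparison of NRF1 OE and Ctrl, so log2 fold changes of that comparison are also given with offsets, fitted per library, that remove trends in GC content and length.

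Promoter sequences of the 3 receptors called between the groups are shown because NRF1 binds GC-rich promoters. They are the 250 bases before the start site that RefSeq gives on GRCm38.p6, 5′ to 3′ on the gene's strand, with each CG dinucleotide in capitals. RefSeq promoters were at hand for 8 of the 10 members.
Notch3, chr17:32166891-32167140, minus strand: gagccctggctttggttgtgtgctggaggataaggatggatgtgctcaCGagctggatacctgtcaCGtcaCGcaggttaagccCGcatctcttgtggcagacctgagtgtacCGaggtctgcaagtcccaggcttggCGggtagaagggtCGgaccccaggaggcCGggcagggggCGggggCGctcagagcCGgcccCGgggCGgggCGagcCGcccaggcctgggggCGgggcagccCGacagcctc
Notch4, chr17:34564045-34564294, plus strand: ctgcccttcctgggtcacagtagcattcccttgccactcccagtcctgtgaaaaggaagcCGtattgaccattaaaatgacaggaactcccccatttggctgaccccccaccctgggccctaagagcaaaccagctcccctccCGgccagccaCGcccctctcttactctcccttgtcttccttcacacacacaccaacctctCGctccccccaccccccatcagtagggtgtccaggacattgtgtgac
Notch2, chr3:98013288-98013537, plus strand: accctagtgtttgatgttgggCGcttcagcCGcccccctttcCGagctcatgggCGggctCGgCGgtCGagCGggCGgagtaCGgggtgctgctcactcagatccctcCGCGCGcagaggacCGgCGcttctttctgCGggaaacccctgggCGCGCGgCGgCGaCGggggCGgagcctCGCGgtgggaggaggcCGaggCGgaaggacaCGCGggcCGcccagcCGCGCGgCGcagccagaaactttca

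The 3 promoters differed widely in CG dinucleotides. Notch2 had 34 of them, Notch3 17 and Notch4 4, and the median of the 32851 promoters in the RefSeq table was 6. At least as many were held by 3.53% of all promoters for Notch2, 23.5% for Notch3 and 62.2% for Notch4. The NRF1 motif GCGCANGCG, searched on both strands, was found in none of the members' promoters and in 5.16% of all promoters. Its shorter form TGCGCA was found in Jag1, 55 bases before the start, and in the downstream promoter of Rbpj, 20 bases before the start, and in 6.43% of all promoters. These searches cover exact letters in 250 bases and cannot tell whether NRF1 binds a gene. The paper names Notch3 among the upregulated genes bound by NRF1 in its ChIP-seq (chromatin immunoprecipitation) of BV+ PGCLCs. It adds that separate RT-PCR and ChIP-PCR assays bore out its findings on these genes. The RBPJ motif TGGGAA was found at Rbpj and in 21.6% of all promoters. The 2 promoters of Rbpj overlap. The upstream one held 2 matches, and the match in the downstream one is the same site as 1 of these. The following stretches of 30 bases hold the matches, in capitals, and Rbpj is shown because the gene that encodes the pathway's DNA-binding factor holds that factor's letters in its own promoter.
Rbpj, chr5:53590185-53590214, plus strand, RBPJ motif: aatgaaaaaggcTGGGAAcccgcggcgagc
Rbpj, chr5:53590269-53590298, plus strand, RBPJ motif reversed: gacgctcgcattTTCCCAggacccctcctc
Rbpj, chr5:53590454-53590483, plus strand, TGCGCA: ggaggagcggccTGCGCAtgctccatcggc
Jag1, chr2:137116558-137116587, minus strand, TGCGCA: ggaataaaaggcTGCGCAtaatcataataa

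Levels between genes were compared as FPKM, which scale counts by library size and transcript length. Notch3 and Rbpj were the most abundant members, and their ranges over the libraries overlapped. Notch3 (ENSMUSG00000038146) had group means of 52.9 ± 11.6 FPKM (SD, n = 2) in BV+ NRF1 OE, 29.3 ± 0.962 (SD, n = 2) in BV+ Ctrl, 27.1 ± 4.67 (SD, n = 3) in BV- NRF1 OE and 21.3 ± 1.12 (SD, n = 2) in BV- Ctrl. Rbpj ranged over libraries from 19.9 to 41.4 FPKM and Hes1 from 10.7 to 15.9 FPKM. Notch2 ranged from 5.95 to 11.0 FPKM, Jag2 from 3.68 to 5.98 FPKM and Notch1 from 3.75 to 4.79 FPKM. Jag1, Hey1, Dll1 and Notch4 were the lowest, with at most 3.34 FPKM. Their ranges overlapped, except that Hey1 (1.85 to 3.15 FPKM) lay above Dll1 (1.01 to 1.75 FPKM) in every library. In every library the order of the receptors was Notch3, Notch2, Notch1 and Notch4, and their ranges over all 9 libraries did not overlap. The 3 ligands were all below Notch2 and Notch3 in every library, and the ranges of Jag2 and Notch1 overlapped.

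Of the summed FPKM of the 4 receptors, Notch3 held 77.4% and 73.6% in the BV+ NRF1 OE libraries, 69.1% and 70.3% in BV+ Ctrl, 65.2%, 71.2% and 68.8% in BV- NRF1 OE, and 65.1% and 67.0% in BV- Ctrl. The summed level was 78.9 and 60.7 FPKM in BV+ NRF1 OE and lay between 31.6 and 43.1 FPKM in the other 7 libraries. The share and the sum were thus highest in both BV+ NRF1 OE libraries, as a description without a test.

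**Figure D1:**
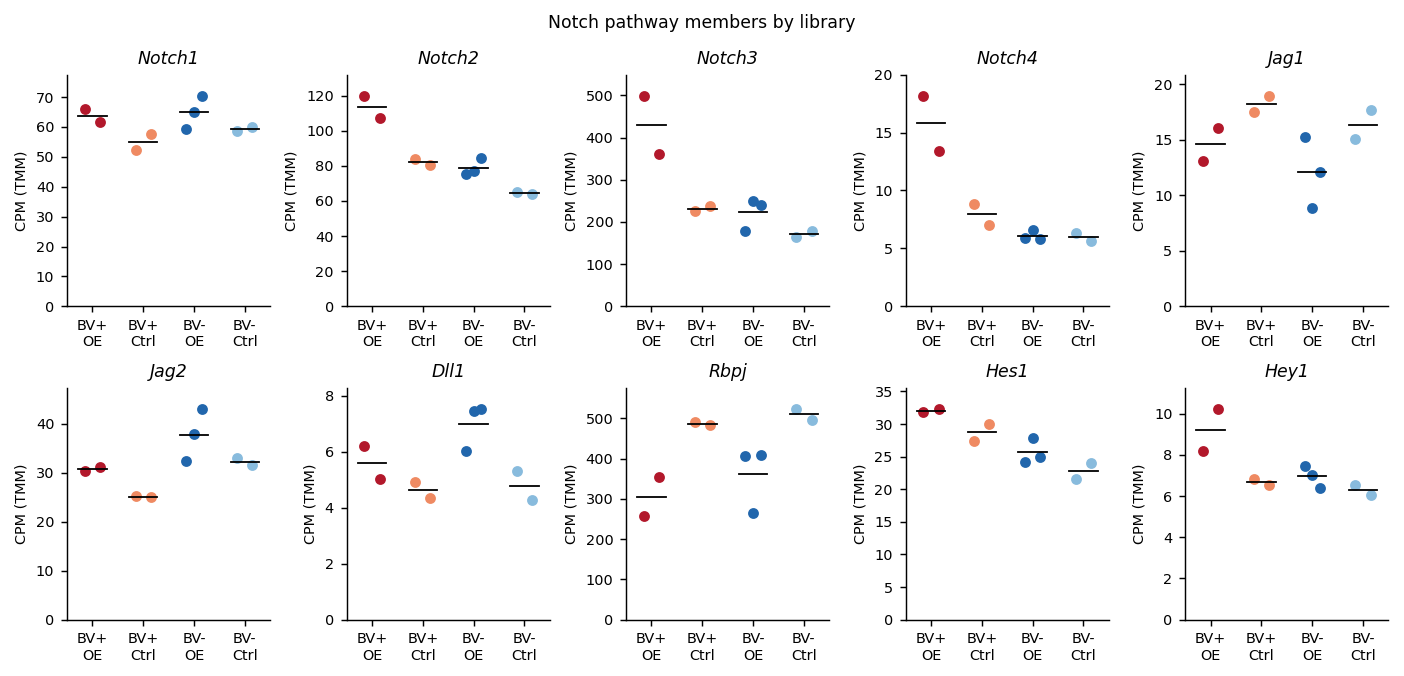
CPM after TMM scaling (vertical axes, from 0) of the 10 members in each library; points are libraries, lines are group means, and OE stands for NRF1 OE. Both BV+ NRF1 OE libraries lie above all other libraries for Notch2, Notch3, Notch4, Hes1 and Hey1, and Rbpj is lower in the 5 NRF1 OE libraries than in the 4 Ctrl libraries.

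The main comparison was NRF1 OE with Ctrl in BV+ cells. The 3 receptors Notch2, Notch3 and Notch4 were higher with NRF1 OE, Notch3 by 1.86-fold and Notch4 by 2.00-fold. Notch1, the ligands, Rbpj and the targets did not pass the test. In all, 3 of 10 members had an adjusted p under 0.05, all of them higher, beside 8.02% of the 16903 genes tested, of which 6.24% of the genes tested were higher. At the study's threshold, an unadjusted p under 0.05 and an absolute log2 fold change above 0.58, Notch3, Notch4 and Rbpj passed, 3 of 10 beside 17.0% of all genes tested. In these bulk libraries, more cells of one kind and more RNA per cell cannot be told apart.

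Notch3 encodes a receptor known from vascular mural cells. It had 499.5 and 360.1 CPM (9695 and 6617 counts) in the BV+ NRF1 OE libraries, and 226 and 237 CPM (3455 and 4514 counts) in BV+ Ctrl. The NRF1 OE libraries stood above both Ctrl libraries but also lay far apart from each other. The log2 fold change was 0.89 with a standard error (SE) of 0.176 and an adjusted p = 0.0208 in edgeR's quasi-likelihood test. With offsets for GC content and length it was 0.60 (SE 0.100, adjusted p = 0.00466). Notch3 transcripts have 59.6% GC, at percentile 94.9 of the genes tested, and the median log2 fold change of the decile of genes with the highest GC content was 0.40.

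The study's RT-PCR primers for Notch3 show where that assay reads the transcript, whereas the counts cover all of its exons. The pair matches positions 339 to 495 of the 8016-base Notch3 transcript of GENCODE, in exons 3 and 4 of 33. An antisense gene, Gm17276, overlaps Notch3 and had between 5 and 11 counts per library.
Notch3 forward primer: tgccagagttcagtggtgg
Notch3 reverse primer: cacaggcaaatcggccatc

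Notch4 encodes a receptor known from endothelial cells. It had 18.2 and 13.4 CPM (353 and 247 counts) in BV+ NRF1 OE and 8.85 and 7.03 CPM (135 and 134 counts) in BV+ Ctrl. The groups did not overlap, and the log2 fold change was 1.00 (SE 0.196, edgeR adjusted p = 0.0204). With the offsets it was 0.69 (SE 0.176, adjusted p = 0.0260). Notch4 has the second highest GC content of the members, 61.2%.

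Notch2 encodes a widely expressed receptor. It had 119.9 and 107.3 CPM in BV+ NRF1 OE and 83.7 and 80.3 CPM in BV+ Ctrl, again without overlap. The log2 fold change was 0.47 (SE 0.114, edgeR adjusted p = 0.0364) and 0.39 with the offsets (adjusted p = 0.0155). It lay under the fold change that the study required. Notch1, the receptor that acts in most well-known Notch settings, had 65.9 and 61.7 CPM against 52.2 and 57.8 CPM (log2 fold change 0.21, SE 0.124, adjusted p = 0.242), or 0.04 with the offsets.

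The calls of the 3 receptors rested on few libraries. Without BV+ NRF1 OE replicate 1, BV+ Ctrl replicate 1 or BV+ Ctrl replicate 2, none of the members and none of all genes tested passed, and the log2 fold change of Notch3 was 0.64, 0.86 and 0.92 with an adjusted p of 0.252, 0.156 and 0.194. Notch4 was at 0.77, 1.17 and 0.84 in the same fits. Notch2 also lost its call without BV- NRF1 OE replicate 3 or BV- Ctrl replicate 1, which left 2 members called.

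Rbpj encodes the protein through which all 4 receptors reach DNA, and it binds with repressors when no receptor is cut. It had 257 and 355 CPM (4981 and 6517 counts) in BV+ NRF1 OE and 489.9 and 482 CPM in BV+ Ctrl. Both NRF1 OE libraries were below both Ctrl libraries, and the log2 fold change was -0.67 (SE 0.199), with an adjusted p = 0.0596 that missed the threshold. With the offsets it was -0.33 (SE 0.101, adjusted p = 0.0494). DESeq2 gave -0.66 with an adjusted p = 0.0167. Rbpj has the lowest GC content of the members, 43.7%, and the median log2 fold change of its decile of genes by GC content was -0.28. Its antisense neighbour Gm40304 had between 12 and 37 counts.

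The ligands did not pass the test. Jag1, a Jagged ligand known from vascular and inner ear development, had 13.1 and 16.1 CPM in BV+ NRF1 OE and 17.5 and 19.0 CPM in BV+ Ctrl (log2 fold change -0.32, SE 0.218, adjusted p = 0.310), or -0.24 with the offsets. Jag2, the other Jagged ligand, had 30.2 and 31.2 CPM against 25.2 and 25.0 CPM. Its log2 fold change was 0.29 (SE 0.146, adjusted p = 0.183), and it turned to -0.02 with the offsets. Dll1, the Delta ligand of somite and neural progenitors, had 6.18 and 5.01 CPM against 4.91 and 4.35 CPM (log2 fold change 0.28, SE 0.218, adjusted p = 0.384), or 0.05 with the offsets.

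The 2 target genes among the members did not pass either. Hes1, a repressor that Notch signalling switches on in many tissues, had 31.8 and 32.3 CPM in BV+ NRF1 OE against 27.5 and 30.0 CPM in BV+ Ctrl. Its log2 fold change was 0.16, and the interval of 2 SE around it ran from -0.11 to 0.42. Hey1, a related repressor of heart and vessel development, had 8.19 and 10.2 CPM against 6.82 and 6.56 CPM. Its log2 fold change was 0.46 (SE 0.182, adjusted p = 0.112), and its 2 SE interval ran from 0.10 to 0.83. With the offsets Hes1 was at 0.08 and Hey1 at 0.33. The 2 groups of BV+ libraries did not overlap for 10 of 10 members, beside 70.1% of all genes tested. The median log2 fold change was 0.28 over the members and 0.04 over all genes tested.

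**Figure D2:**
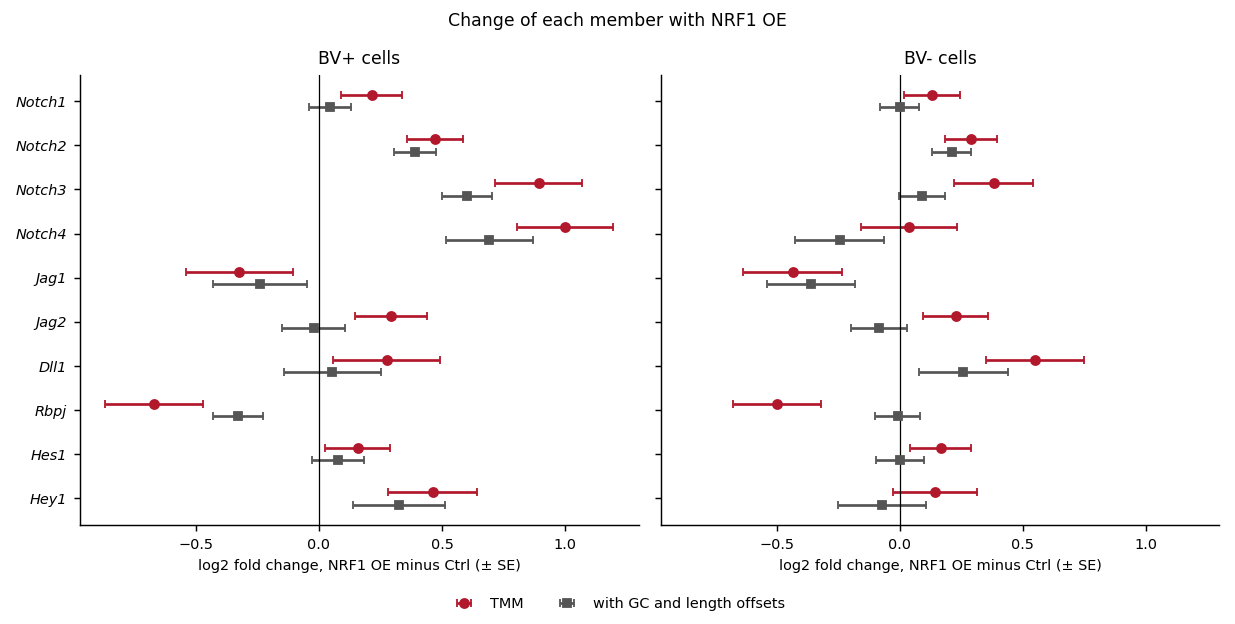
Log2 fold change of NRF1 OE over Ctrl for each member (points, with bars of 1 SE) in BV+ and BV- cells, with TMM scaling alone (circles) and with offsets for GC content and length (squares). In BV+ cells Notch3 moves from 0.89 to 0.60 and Notch4 from 1.00 to 0.69, and in BV- cells Rbpj moves from -0.50 to -0.01.

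The same comparison in BV- cells called 0 of 10 members with edgeR, beside 17.2% of all genes tested. An unadjusted p under 0.05 was reached by 4 members, Notch2, Notch3, Dll1 and Rbpj, and by 39.1% of all genes tested. DESeq2 called 1 member, Rbpj, and 23.8% of all genes tested. None passed the study's threshold, beside 16.0% of all genes tested. Notch3 had 180, 251 and 240 CPM in BV- NRF1 OE and 165 and 178 CPM in BV- Ctrl. The lowest NRF1 OE library was just above the higher Ctrl library, and the log2 fold change was 0.38 (SE 0.162, adjusted p = 0.107), or 0.09 with the offsets.

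Notch4 had 5.90, 6.63 and 5.80 CPM in BV- NRF1 OE and 6.30 and 5.61 CPM in BV- Ctrl, and the groups overlapped. Its log2 fold change was 0.04, and -0.24 with the offsets. Notch2 had 75.3, 76.9 and 84.2 CPM against 65.0 and 64.0 CPM (log2 fold change 0.29, SE 0.106, adjusted p = 0.0718), or 0.21 with the offsets. Dll1 had the largest upward value of the members, with 6.02, 7.44 and 7.52 CPM against 5.29 and 4.27 CPM (log2 fold change 0.55, SE 0.199, adjusted p = 0.0700), or 0.26 with the offsets.

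Rbpj had 407, 265 and 408 CPM in BV- NRF1 OE against 523 and 495 CPM in BV- Ctrl (log2 fold change -0.50, SE 0.179, adjusted p = 0.0683). With the offsets it was -0.01 (SE 0.0918). Jag1 had 15.3, 8.84 and 12.1 CPM against 15.1 and 17.7 CPM, with overlap between the groups, and a log2 fold change of -0.43, or -0.36 with the offsets. Notch1, Jag2, Hes1 and Hey1 had log2 fold changes between 0.13 and 0.23, and between -0.08 and 0.0021 with the offsets. The groups did not overlap for 5 of 10 members, beside 57.0% of all genes tested. Without BV- NRF1 OE replicate 1, 6 members were called: Notch2, Notch3, Jag2 and Dll1 higher, and Jag1 and Rbpj lower, beside 34.6% of all genes tested in that fit.

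**Figure D3:**
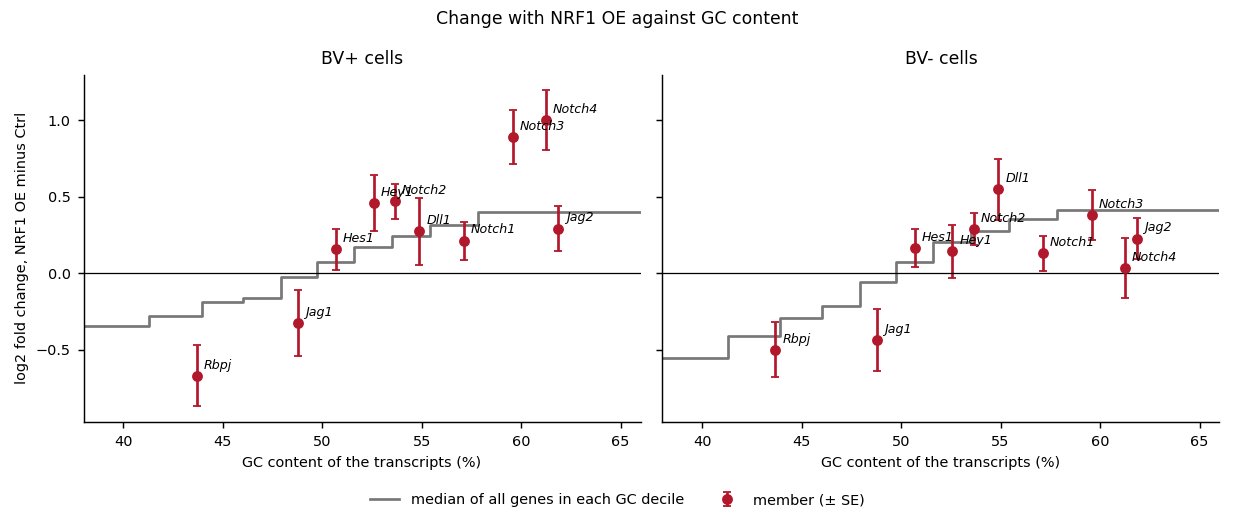
Log2 fold change of NRF1 OE over Ctrl (vertical axis) against the GC content of the transcripts in percent (horizontal axis); points are members with bars of 1 SE, and the grey steps are the medians of all genes tested in each decile by GC content. In BV+ cells Notch3 and Notch4 lie above the step of 0.40, and in BV- cells Notch3 (0.38) and Notch4 (0.04) lie below the step of 0.42.

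Whether the NRF1 OE effect differed between BV+ and BV- cells was tested in the same edgeR fit. None of the 10 members passed, beside 0% of all genes tested. An unadjusted p under 0.05 was reached by 1 member, Notch4, and by 5.51% of all genes tested, and DESeq2 called 0 members and 23 of all genes. The difference of the log2 fold changes was 0.96 for Notch4 (SE 0.276, adjusted p = 0.584) and 0.51 for Notch3 (SE 0.237, adjusted p = 0.900). The interval of 2 SE ran from 0.41 to 1.51 for Notch4 and from 0.04 to 0.98 for Notch3. With the offsets the differences were 0.94 and 0.51, both with an adjusted p = 0.225.

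BV+ and BV- cells were then compared within each condition. At Ctrl, 0 of 10 members were called by edgeR or by DESeq2, beside 1.12% of all genes tested, and 4 members had an unadjusted p under 0.05, beside 7.77% of all genes tested. These 4 were Notch2 (log2 fold change 0.35, SE 0.115, adjusted p = 0.321), Notch3 (0.43, SE 0.176, adjusted p = 0.532) and Hes1 (0.33, SE 0.134, adjusted p = 0.529), with higher values in BV+ cells, and Jag2 (-0.36, SE 0.146, adjusted p = 0.529), with lower ones. A fit of only these 4 libraries called Notch2, Notch3 and Jag2, beside 5.52% of all genes tested in it. The groups did not overlap for 8 of 10 members, beside 48.0% of all genes tested.

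At NRF1 OE, 3 of 10 members were higher in BV+ than in BV- cells, beside 13.8% of all genes tested, or 9.90% in the higher direction. They were the same receptors that were called with NRF1 OE in BV+ cells, in a comparison that shares the BV+ NRF1 OE libraries with it. The log2 fold change was 1.37 for Notch4 (SE 0.179, adjusted p = 0.000381), 0.94 for Notch3 (SE 0.158, adjusted p = 0.00215) and 0.53 for Notch2 (SE 0.103, adjusted p = 0.00587). The rho with GC content was 0.333 and -0.00466 in the BV+ and 0.0581, 0.695 and 0.58 in the BV- libraries of this comparison, and with the offsets the values were 1.26, 0.86 and 0.43. Notch2 lost its call without BV+ NRF1 OE replicate 1 (0.45, adjusted p = 0.0849), and 5 members were called without BV- NRF1 OE replicate 2, with Hes1 and Rbpj added, beside 14.8% of all genes tested.

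Hes1 had 31.8 and 32.3 CPM in BV+ NRF1 OE against 24.1, 27.9 and 24.9 CPM in BV- NRF1 OE (log2 fold change 0.32, SE 0.121, adjusted p = 0.104). Hey1 had a log2 fold change of 0.40 (SE 0.165, adjusted p = 0.133). With the offsets 6 members were called, beside 20.5% of all genes tested, with Hes1 (0.48, adjusted p = 0.00352) higher in BV+ cells and Jag2 (-0.37, adjusted p = 0.0359) and Rbpj (-0.51, adjusted p = 0.00207) lower. The groups did not overlap for 6 of 10 members, beside 39.9% of all genes tested.

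The genes most like Notch3 over the 9 libraries were sought among 14374 genes with a mean of at least 1 CPM, by the root mean square difference of their centred log2 CPM. They were Ppp1r18 (0.061), Lrp1 (0.062), Lrrc75a (0.068), Phldb1 (0.069) and Galnt10 (0.076), with transcripts of between 55.3% and 60.0% GC. Of the other members, Notch4 and Notch2 came closest, at a difference of 0.23 each and ranks 271 and 274, and Rbpj was farthest, at 0.80 and rank 13087. The difference between Jag2 and Dll1 was 0.17, and that between Hes1 and Notch2 was 0.16. These measures share the libraries and their GC trends.

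The rest of the pathway was covered by 53 genes in lists of other ligands, glycosylation, cleavage, nuclear cofactors, trafficking and turnover, and other targets. Of these, 47 were tested. The other 6, Dll4, Dlk2, Hes2, Hes3, Hes5 and Hes7, had at most 14 counts in any library. Hes5 and Hes7, targets known from neural progenitors and the somite clock, had 17 and 24 counts over the 9 libraries together.

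In BV+ cells 6 of the 47 genes were higher with NRF1 OE and 0 lower, or 12.8% beside 8.02% of all genes tested. Maml3, a Mastermind coactivator, had 24.4 and 23.5 CPM against 12.4 and 14.4 CPM (log2 fold change 0.84, SE 0.150, adjusted p = 0.0158). Furin, the protease that cuts Notch precursors on their way to the surface, had 79.8 and 60.8 CPM against 41.6 and 37.0 CPM (0.84, SE 0.165, adjusted p = 0.0204). Dlk1, a ligand-like membrane protein without a Delta domain, had 24.9 and 14.4 CPM against 8.52 and 7.76 CPM (1.28, SE 0.253, adjusted p = 0.0209).

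The other 3 were Dtx4, a Deltex ubiquitin ligase (0.85, adjusted p = 0.0459), Hes6, a Hes family member that can oppose HES1 (0.80, adjusted p = 0.0463), and Ncstn, the nicastrin subunit of gamma-secretase (0.54, adjusted p = 0.0473). With the offsets 7 genes were higher and 2 lower, beside 13.0% of all genes tested. Of the 6 genes, 5 were called there too, with values of 0.82 for Maml3, 0.65 for Furin, 1.13 for Dlk1, 0.77 for Dtx4 and 0.46 for Ncstn, and Hes6 lost its call (0.37, adjusted p = 0.0905). None of the 5 glycosylation genes passed. Without BV+ NRF1 OE replicate 1 or either BV+ Ctrl library, 0 of the 47 were called, and without BV- NRF1 OE replicate 3 or BV- Ctrl replicate 1, 3 were, beside 3.94% and 3.01% of all genes tested. Without BV+ NRF1 OE replicate 2 or BV- NRF1 OE replicate 2, 14 and 23 were called, beside 11.5% and 29.4% of all genes tested.

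In BV- cells 5 of the 47 were higher with NRF1 OE and 7 lower, or 25.5% beside 17.2% of all genes tested. Hes6 had 23.7, 34.1 and 24.6 CPM against 11.9 and 15.8 CPM (log2 fold change 0.98, SE 0.199, adjusted p = 0.0317). Mib1, the ubiquitin ligase that lets ligands be taken up and signal, had 107, 54.7 and 89.7 CPM against 162 and 138 CPM (-0.84, SE 0.215, adjusted p = 0.0351). Dll3 (1.05), Dtx4 (0.83), Furin (0.64) and Dtx2 (0.62) were also higher.

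The other lower genes were the corepressor Ncor1 (-0.72), the acetyltransferase Kat2b (-0.69), the ubiquitin ligase Itch (-0.67), the receptor protease Adam10 (-0.66), the RBPJ-associated demethylase Kdm5a (-0.66) and the RBPJ partner L3mbtl3 (-0.62). With the offsets 4 genes were higher and 0 lower, beside 6.07% of all genes tested. The 4 were Dtx4 (0.69), Hes6 (0.50), Furin (0.44) and Dtx2 (0.44). Dll3 was at 0.60 (adjusted p = 0.173), and the 7 genes called lower before were at -0.38 for Mib1, -0.49 for Ncor1, -0.51 for Kat2b, -0.18 for Itch, -0.29 for Adam10, -0.15 for Kdm5a and -0.36 for L3mbtl3. Leaving out either BV+ Ctrl library, either BV- Ctrl library or BV- NRF1 OE replicate 3 left 0 called, a fit of only these 5 libraries also called 0, and leaving out BV- NRF1 OE replicate 1 called 23, beside 34.6% of all genes tested.

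**Figure D4:**
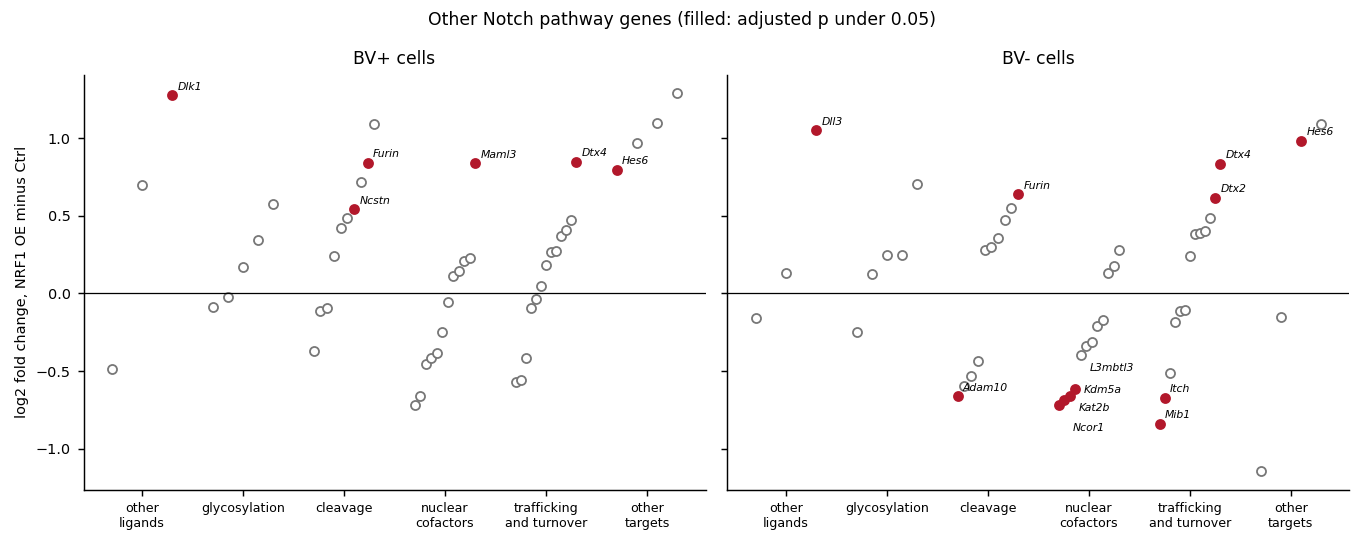
Log2 fold change of NRF1 OE over Ctrl (vertical axis) for the 47 other Notch pathway genes tested, by list, in BV+ and BV- cells; each point is a gene and filled points have an adjusted p under 0.05. All 6 filled points in BV+ cells are above 0, whereas 7 of the 12 in BV- cells are below 0.

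Between the populations at Ctrl, Maml3 (log2 fold change 0.91, adjusted p = 0.0183) and Dlk1 (1.58, adjusted p = 0.0246) were higher in BV+ cells, 2 of 47 genes or 4.26% beside 1.12% of all genes tested. Without any single one of the 4 Ctrl libraries 0 of the 47 passed. At NRF1 OE 10 of 47 were higher in BV+ cells and 0 lower, or 21.3% beside 13.8%. Among them, Hey2 and Heyl reached the level the filter on low counts asked for, 0.573 CPM, in no BV- NRF1 OE library and passed it through BV+ libraries. No fold change is given for them and their calls are no support. The 21.3% includes them, so it is not read against the 13.8%. Hey2, known from arteries and the heart, had 3.66 and 2.50 CPM in BV+ against between 0.12 and 0.41 CPM in BV- NRF1 OE libraries. Heyl, known from smooth muscle, had 1.91 and 2.18 CPM against between 0.22 and 0.30 CPM.

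Nrarp, a feedback inhibitor of Notch complexes, had 8.86 and 4.46 CPM against between 1.30 and 2.28 CPM (log2 fold change 1.96, adjusted p = 0.00185). Maml3 (1.57), Dlk1 (2.72), L3mbtl3 (1.26), Aph1b (1.93), Adam10 (0.98), Dtx4 (0.79) and Maml2 (0.59) completed the 10. In the test of the difference between the populations, 0 of the 47 passed.

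Markers of vessel cells were set beside Notch3 and Notch4. The summed CPM of 8 mural and smooth muscle markers was 702 and 385 in BV+ NRF1 OE, 135 and 124 in BV+ Ctrl, between 97.4 and 143 in BV- NRF1 OE, and 57.8 and 71.2 in BV- Ctrl. In every library most of this sum was Acta2, with 505.8 and 269.8 CPM in BV+ NRF1 OE and 83.2 and 72.9 CPM in BV+ Ctrl. None of the 8 was at 0 throughout a group. With NRF1 OE in BV+ cells 6 of 8 were called, all higher, beside 8.02% of all genes tested. The 6 were Acta2, smooth muscle actin (log2 fold change 2.31, SE 0.267, adjusted p = 0.00966), Tagln, Pdgfrb, Rgs5, Cspg4 and Des. Cnn1 (0.94) and Myh11 (0.38) were not called. The same number, 6 of 8, were higher in BV+ than in BV- cells at NRF1 OE, beside 13.8% of all genes tested. Rgs5 is among the 6, but it passed the filter through BV+ libraries alone, so its call is no support. The 6 of 8 includes it and is not read against the 13.8%. Cnn1 (-0.18) and Myh11 (0.19) were not called there either. With NRF1 OE in BV- cells 2 of 8 were called by edgeR, both higher, beside 17.2% of all genes tested, or 10.2% in the higher direction. They were Acta2 (log2 fold change 0.87, adjusted p = 0.0403) and Tagln (1.26, adjusted p = 0.0411).

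Of 7 endothelial markers, Cdh5 (log2 fold change 1.59, adjusted p = 0.0204) and Kdr (1.49, adjusted p = 0.0125) were higher with NRF1 OE in BV+ cells. Emcn was also called, with 2.47 and 1.36 CPM in BV+ NRF1 OE against 0.52 and 0.37 CPM in BV+ Ctrl, but it passed the filter through the BV+ NRF1 OE libraries alone. Pecam1 (-0.24), Tek (0.01), Tie1 (1.18) and Sox18 (1.40) were not called. The summed CPM of the 7 lay between 157 and 192 in BV+ NRF1 OE and between 169 and 179 in BV+ Ctrl, and was mostly Pecam1, which germ cells and pluripotent cells also express. Emcn was at 0 in both BV- Ctrl libraries. With the offsets 7 of 8 mural markers were called higher with NRF1 OE in BV+ cells, beside 13.0% of all genes tested. In BV- cells 0 of 8 were, beside 6.07% of all genes tested. The part of such cells in the values of Notch3, Notch4, Hey2, Heyl and Nrarp was not tested.

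**Figure D5:**
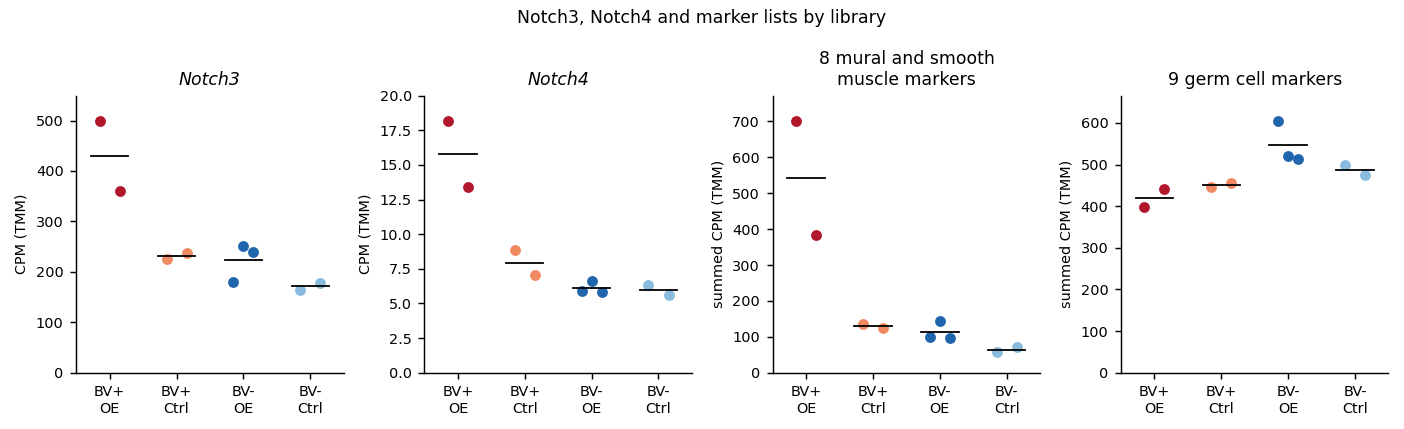
Notch3 and Notch4 (CPM) and the summed CPM of 8 mural and smooth muscle markers and 9 germ cell markers (vertical axes, from 0) in each library; points are libraries and lines are group means. The mural sums are mostly Acta2. The BV+ NRF1 OE library with the higher Notch3, 499.5 CPM, also has the higher mural sum, 702. It also has the higher rho with GC content, 0.333 against -0.00466, and this order of 2 libraries was not tested. The germ cell sums of the BV+ libraries, 397 to 457, lie below those of the BV- libraries.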

How the data were processed

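RNA-seq libraries of sorted BV+ and BV- cells were analysed from per-library gene tables. The submitters' notes name HISAT2 2.0.1, HTSeq 0.6.1 and GRCm39. The deposited count column holds raw read counts per gene, and the authors also deposited FPKM computed from them. Whether counting used the strand is not given in the sources used here. Groups and replicate numbers came from the sample titles.

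Counts were tested in R 4.3.3 with edgeR 4.0.16 (TMM, filterByExpr, quasi-likelihood F test), with the 4 groups of the 9 libraries modelled together, with Benjamini-Hochberg adjustment over the 16903 genes tested. Tests were two-sided, a gene was called at an adjusted p under 0.05, and a prior count of 2 was used for log2 CPM. Total counts of 13702162 to 19625460 limit the precision of low genes such as Notch4 and Dll1. Alternatives were DESeq2 1.42.0, other scaling factors, other filters, a replicate block, offsets from splines over GC content and length, only the groups compared, and each library left out. The fit was tested on simulated counts with the same spread for all genes and no trend in GC content, so that test does not cover the trend in these libraries. GC content came from GENCODE transcripts on GRCm38, for 16662 of the genes tested, and promoters from RefSeq. Figures used Python 3.11.15 and matplotlib 3.10.9.

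The members, gene lists and marker lists were chosen with earlier results of these data known. All members were named. From each other pathway list, the genes named had the smallest adjusted p under 0.05 in a comparison, up to 4 per list. A gene of the pathway lists is not reported here and was left out of their counts, though not of the fit. Other called genes were named after their values were seen, as were the motifs. Of the marker lists, paraxial mesoderm had 0 of 3 tested genes called with NRF1 OE in BV+ cells, endoderm 0 of 6, neural 1 of 5, pluripotency 2 of 6 (lower) and germ cells 1 of 9. The share called among all genes tested in that comparison was 8.02%.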

Additional observations from a re-analysis of the deposited data

How the results depend on the processing

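Among the alternatives run, the number of members called was as follows. For NRF1 OE in BV+ cells it was 0 with the replicate block, 4 with DESeq2, upper-quartile factors, no filter, the offsets or only the groups compared, 3 with the other alternatives to the fit of all libraries, and between 0 and 4 over the libraries left out. In BV- cells it was 1 with DESeq2, 1 with upper-quartile factors and 2 with no filter, 0 with the others, and between 0 and 6 over the libraries left out. For BV+ against BV- cells at Ctrl it was 1 with no filter, 3 with only the groups compared and 0 with the others. At NRF1 OE it was 6 with the offsets, 5 with the block and the offsets together, 3 with the others, and between 2 and 5 over the libraries left out. The difference of the effects gave 0 members throughout. A fit that leaves 1 library in a group assumes that it varies like the other groups.

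Whether same-numbered libraries came from the same culture is not given in the sources used here. Such libraries deviated together with correlations between -0.243 and 0.246. These values cannot decide whether they are paired, because NRF1 OE libraries of a group also differed in their trend with GC content. The main fit treats the libraries as unpaired, and the block allows for pairing by replicate number. With the block in BV+ cells Notch3 was at 0.90 (adjusted p = 0.0718), Notch4 at 0.99 (0.0615) and Notch2 at 0.47 (0.103), in edgeR.

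Log2 fold changes that turned sign were small, and the cause was not tested. With the offsets, and with the block and the offsets, NRF1 OE gave -0.0218 and -0.0211 for Jag2 in BV+ cells, and in BV- cells -0.000501 and -0.0211 for Notch1, -0.244 and -0.187 for Notch4, -0.0846 and -0.169 for Jag2, and -0.0724 and -0.0190 for Hey1. Notch4 in BV- cells was at -0.00134 with library size alone. Notch1 in BV+ against BV- cells at NRF1 OE was at 0.0125 with a mean of 10 counts, 0.0403 with the block and 0.0112 with only the groups compared. For Hes1 the difference of the effects was 0.00356 with DESeq2, 0.00310 with its size factors, 0.0476 with a mean of 10 counts, 0.0759 with the offsets and 0.0709 with the block and the offsets. Over the libraries left out, values ran from -0.0595 to 0.122 for Notch4 with NRF1 OE in BV- cells, from -0.221 to 0.112 for Dll1 between the populations at Ctrl, and from -0.0877 to 0.0496 for Notch1 at NRF1 OE. For the difference of the effects they ran from -0.0560 to 0.315 for Jag1, from -0.0360 to 0.159 for Jag2, from -0.423 to 0.0440 for Rbpj and from -0.0721 to 0.0631 for Hes1.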
